A study of Mus musculus with 6 samples.

Results

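Platelet-activating factor acetylhydrolase 1b is a cytosolic enzyme that removes the acetyl group from platelet-activating factor (PAF), an ether phospholipid messenger. Its catalytic subunits, encoded by Pafah1b3 and Pafah1b2, pair with each other or with themselves and bind a noncatalytic subunit encoded by Pafah1b1 and better known as LIS1, the gene whose loss of a copy causes lissencephaly in humans. LIS1 also acts outside this enzyme: together with the scaffold proteins NDE1 and NDEL1 it binds cytoplasmic dynein, the motor that carries cargo towards microtubule minus ends and that organises spindles and positions nuclei. The genes described here are the 3 Pafah1b subunits, both scaffold genes Nde1 and Ndel1, and Dync1h1, which encodes the dynein heavy chain. They were chosen by name, 6 genes of 27179 in the count tables, with the question whether Pafah1b1 and Pafah1b2 move where Pafah1b3 is low. The low level of Pafah1b3 in knockout libraries was known when the genes were chosen and is therefore described without a test.

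The libraries came from mouse germinal vesicle (GV) oocytes, which are fully grown and still held in meiotic prophase. In the 3 Prdm10 maternal knockout libraries a Cre driven by the Zp3 promoter, active from the growth phase of the oocyte, had removed floxed exon 5 of Prdm10, a zinc finger gene of the PRDM family. The 3 libraries set against them are labelled wildtype. About 10 oocytes were pooled for each library. The labels call the replicates biological but give no strain or age and do not say whether different mice were used, so a p-value here sets the genotypes against the spread among pools.

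Total counts were 33698776 to 37966868 in knockout and 22492228 to 38831227 in wildtype libraries. Prdm10 itself, counted over the whole gene, had 2.80, 3.82 and 3.05 CPM (reads of the gene per 1000000 reads of the scaled library) in knockout libraries, against 10.4, 23.1 and 23.0 CPM in wildtype libraries. All 9 oocyte markers examined, among them Zp3 and Gdf9, were detected, and their summed level was 26134 to 27462 CPM in knockout and 25190 to 27827 CPM in wildtype libraries. The sum hides differences of single markers in wildtype replicate 1, in both directions. In wildtype replicates 1, 2 and 3 Bmp15 had 2106, 5606 and 5370 CPM, and Oosp1 had 2293, 1201 and 1179 CPM. Summed levels of 15 granulosa and cumulus markers were 79.0 to 94.0 CPM in knockout and 87.6 to 96.4 CPM in wildtype libraries, with Ptx3 at 0 in every library. Of 7 blood, immune and endothelial markers Hba-a1 and Cdh5 were at 0, but the sum was 113.7 to 116.6 CPM in knockout and 34.4 to 77.3 CPM in wildtype libraries. Pecam1 made up most of it (log2 fold change of knockout over wildtype 0.79, adjusted p = 0.143, edgeR quasi-likelihood test). It had 103.4, 105.3 and 105.4 CPM in knockout libraries, against 30.4, 75.6 and 75.7 CPM in wildtype libraries, with no overlap. The macrophage marker Cd68 was the only marker called in the 4 marker lists, with 10.6 ± 0.407 CPM in knockout oocytes and 2.10 ± 1.33 CPM in the wildtype (SD, n = 3 each; log2 fold change 2.28, adjusted p = 0.0108, edgeR). The part of these markers in the results was not tested. The sum of 12 theca, stroma and smooth muscle markers, most of it Myh11, was 66.2 to 76.8 CPM in knockout and 82.9 to 99.96 CPM in wildtype libraries. Wildtype replicate 1 stood apart from the other wildtype libraries (Spearman correlation 0.975 to 0.976 across genes, against 0.996 between wildtype replicates 2 and 3), so values without it stand beside the results.

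Pafah1b3, the catalytic subunit gene that named the question, was nearly absent from knockout oocytes. It is a short gene on GRCm38 chromosome 7 (Entrez 18476, 25295048 to 25297986, minus strand). Knockout libraries held 46, 42 and 63 reads of it, or 1.36, 1.12 and 1.67 CPM, against 2606, 908 and 801 reads, or 62.6, 35.0 and 36.6 CPM, in wildtype libraries. The highest knockout library was thus far below the lowest wildtype library, and wildtype replicate 1 was the highest of all. The means were 1.38 ± 0.274 CPM in knockout oocytes and 44.7 ± 15.5 CPM in the wildtype (SD, n = 3 each), a log2 change (the fitted log2 fold change of knockout over wildtype) of -5.01. Leaving out wildtype replicate 1 gave -4.69. Because these are bulk pools, fewer oocytes holding the transcript and less transcript per oocyte cannot be told apart.

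**Figure D1:**
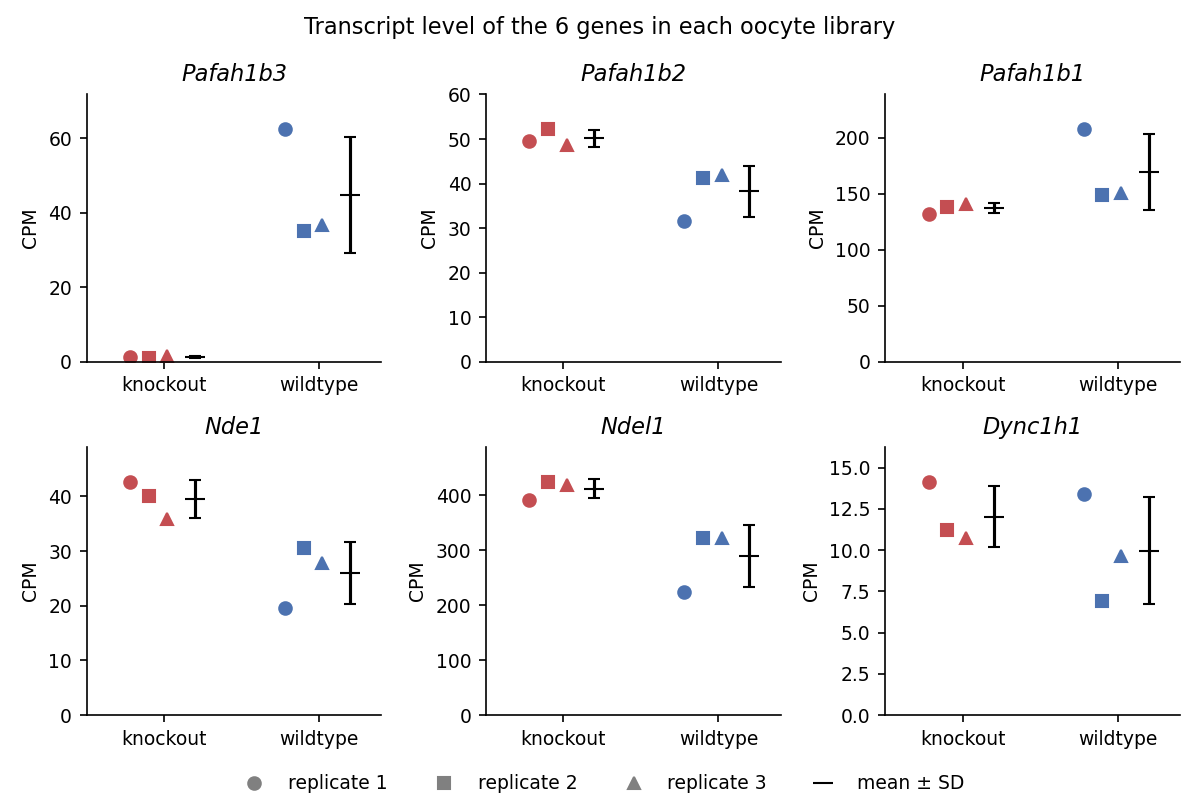
CPM of the 6 genes (vertical axes, each starting at 0) in knockout (red) and wildtype (blue) libraries, with 1 symbol for each replicate number and the mean ± SD in black. Pafah1b3 lies at 1.12 to 1.67 CPM in knockout and 35.0 to 62.6 CPM in wildtype libraries, while the fitted folds of the other 5 genes lie between 0.811 and 1.52.

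Neither gene beside Pafah1b3 shared a decrease of that size. Cic, which encodes a transcriptional repressor, ends 888 bases from Pafah1b3 and is transcribed towards it. It had 18.8, 17.0 and 17.3 CPM in knockout libraries, against 58.9, 18.3 and 20.9 CPM in wildtype libraries. The genotypes overlapped for Cic, and its higher wildtype mean rested on wildtype replicate 1: the log2 change was -0.89 (adjusted p = 0.199, edgeR quasi-likelihood test) with all libraries and -0.15 without that library. Prr19 begins 3372 bases away on the other side and is transcribed away from Pafah1b3. It was scarce, at 0.926 ± 0.0904 CPM in knockout oocytes and 1.36 ± 0.147 CPM in the wildtype (SD, n = 3 each; log2 change -0.55, SE 0.23, adjusted p = 0.164, edgeR). No annotated gene overlaps Pafah1b3 in the RefSeq table.

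The 5 genes whose profiles over the 6 libraries lay nearest to that of Pafah1b3 were Ptov1, Fam187b, Ube2a, Ankrd13a and Madd. The measure was the Euclidean distance between log2 CPM values, each set against the gene's own wildtype mean, over 8686 other genes that averaged at least 10 CPM in a genotype. Ptov1 was the closest, at a distance of 0.37 log2 units, with 2.46 ± 0.139 CPM in knockout oocytes and 78.6 ± 18.0 CPM in the wildtype (SD, n = 3 each). The other 4 lay at distances of 0.77 to 1.38.

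Pafah1b2, the other catalytic subunit gene, was slightly more abundant in knockout libraries, but not past the threshold. It lies on chromosome 9 (Entrez 18475, 45965311 to 46012690, minus strand). Knockout libraries had 49.5, 52.4 and 48.6 CPM, against 31.6, 41.3 and 41.9 CPM in wildtype libraries. Every knockout library was above every wildtype library, and wildtype replicate 1 was the lowest of the 6. The means were 50.2 ± 1.95 CPM in knockout oocytes and 38.3 ± 5.79 CPM in the wildtype (SD, n = 3 each). The fitted fold was 1.31 (95% interval 1.04 to 1.65, not adjusted for multiple tests), with a log2 change of 0.39 (SE 0.14, adjusted p = 0.119, edgeR). Without wildtype replicate 1 the difference was smaller, at 0.27, yet it passed the threshold (adjusted p = 0.0190, edgeR; 0.0190 to 0.323 over all alternatives).

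Pafah1b2 starts head to head with Sik3, which encodes a kinase of the AMPK-related family, with 129 bases between the annotated genes. Sik3 was chosen after its position and values were seen. It had 2.18, 1.74 and 2.04 CPM in knockout libraries, against 1.32, 1.08 and 0.823 CPM in wildtype libraries, a log2 change of 0.86 (SE 0.25, adjusted p = 0.0655, edgeR). The DESeq2 Wald test gave an adjusted p of 0.0438 for Sik3. Every knockout library was again above every wildtype library, and without wildtype replicate 1 the log2 change was 1.05 (adjusted p = 0.0106, edgeR; 0.0106 to 0.207 over the alternatives that could test it). The RefSeq promoter table for GRCm38.p6, which gives 250 bases before and 50 after a start, held 5 of the 6 genes, without Pafah1b3. The stretch between Pafah1b2 and Sik3 is shown because both genes start in it, next to the promoter of Ndel1, another of the genes with no overlap between genotypes. Nde1 and Pafah1b1 also had no overlap, and their promoters are not shown. Capitals mark CACGTG, an E-box that reads the same on both strands and was searched after these sequences had been seen. The GC box GGGCGG and the CCAAT box were searched too, and 35.7% and 37.4% of all promoters held them. GGGCGG was in the window of Ndel1 but not in the Pafah1b2 window shown, and CCAAT was in neither. The window of Nde1 held both of these but no CACGTG.
Pafah1b2 promoter (chr9:46012641-46012940, minus strand): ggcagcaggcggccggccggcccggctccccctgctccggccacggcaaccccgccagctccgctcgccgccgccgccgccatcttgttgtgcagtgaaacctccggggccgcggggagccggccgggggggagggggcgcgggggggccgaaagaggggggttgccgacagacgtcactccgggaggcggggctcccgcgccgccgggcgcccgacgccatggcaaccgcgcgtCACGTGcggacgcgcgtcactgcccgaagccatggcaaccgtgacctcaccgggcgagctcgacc
Ndel1 promoter (chr11:68853086-68853385, minus strand): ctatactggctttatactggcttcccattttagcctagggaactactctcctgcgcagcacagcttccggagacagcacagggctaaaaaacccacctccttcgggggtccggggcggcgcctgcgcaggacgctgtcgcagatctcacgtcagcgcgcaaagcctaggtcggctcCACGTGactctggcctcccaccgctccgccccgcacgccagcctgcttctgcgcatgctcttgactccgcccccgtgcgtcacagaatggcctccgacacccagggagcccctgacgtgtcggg
CACGTG occurred in both of these windows and in 7.15% of all 32851 promoters of that table, while the windows of Pafah1b1, Nde1 and Dync1h1 and the other 3 windows listed for Pafah1b2 did not hold it. The window of Pafah1b2 shown was 78.3% G or C and that of Ndel1 64.3%, against a median of 52.7% over all promoters. They held 45 and 25 CG pairs, against a median of 7. The share of promoters of like composition that hold CACGTG was not counted. These letters describe the sequence only.

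The 5 genes nearest to Pafah1b2 by the same distance were Slc35b2, Tsga10, Gch1, Atp2a2 and Rbm4b, at 0.06 to 0.09 log2 units. Their log2 changes were between 0.35 and 0.41, near that of Pafah1b2 because they were chosen for their likeness to it.

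Pafah1b1, the gene of the noncatalytic subunit LIS1, was somewhat less abundant in knockout libraries, also short of the threshold. It lies on chromosome 11 (Entrez 18472, 74673949 to 74724384, minus strand). Knockout libraries had 132.0, 138.5 and 141.1 CPM, against 208.0, 149.0 and 150.5 CPM in wildtype libraries. The genotypes did not overlap, but knockout replicate 3 and wildtype replicate 2 were close, and wildtype replicate 1 was far above the rest. The means were 137.2 ± 4.69 CPM in knockout oocytes and 169.2 ± 33.7 CPM in the wildtype (SD, n = 3 each), a fitted fold of 0.811 (95% interval 0.633 to 1.04). Its log2 change was -0.30 (SE 0.15, adjusted p = 0.238, edgeR), and without wildtype replicate 1 it was -0.13 (adjusted p = 0.116, edgeR; 0.116 to 0.474 over all alternatives).

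Set against each other within a library, which needs no scaling between libraries, Pafah1b2 stood higher relative to Pafah1b1 in knockout oocytes. The log2 ratio of their counts was -1.41, -1.40 and -1.54 in knockout libraries, against -2.72, -1.85 and -1.85 in wildtype libraries. The difference of the means was 0.69 log2 units (two-sided exact permutation test, p = 0.1, below which 3 libraries against 3 cannot go). Leaving out wildtype replicate 1 gave 0.40.

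Per kilobase of the longest annotated transcript, Pafah1b3 had more mRNA than Pafah1b2 in wildtype oocytes and less in knockout oocytes. Its length-scaled level was 1.25 ± 0.248 CPM per kb in knockout and 40.4 ± 14.0 CPM per kb in wildtype oocytes, and that of Pafah1b2 was 7.30 ± 0.284 CPM per kb in knockout and 5.57 ± 0.843 CPM per kb in wildtype oocytes (SD, n = 3 each). Pafah1b3 thus made up 14.5%, 11.8% and 17.6% of the summed catalytic subunit mRNA level in knockout libraries, against 92.5%, 84.0% and 84.5% in wildtype libraries. The sum itself was 8.43 to 8.63 CPM per kb in knockout and 37.6 to 61.2 CPM per kb in wildtype libraries. The mean of Pafah1b2 was 1.73 CPM per kb higher in knockout than in wildtype oocytes, where that of the sum differed by -37.5 CPM per kb (knockout minus wildtype). These shares are of mRNA, as protein was not measured, use the gene chosen for its low level and are given as a description. They depend on the transcript lengths taken, 1106 bases for Pafah1b3 and 6873 bases for Pafah1b2: from counts without length scaling Pafah1b3 made up 2.67%, 2.10% and 3.32% in knockout libraries, against 66.5%, 45.9% and 46.7% in wildtype libraries. Without that scaling it was thus the larger part in wildtype replicate 1 alone.

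**Figure D2:**
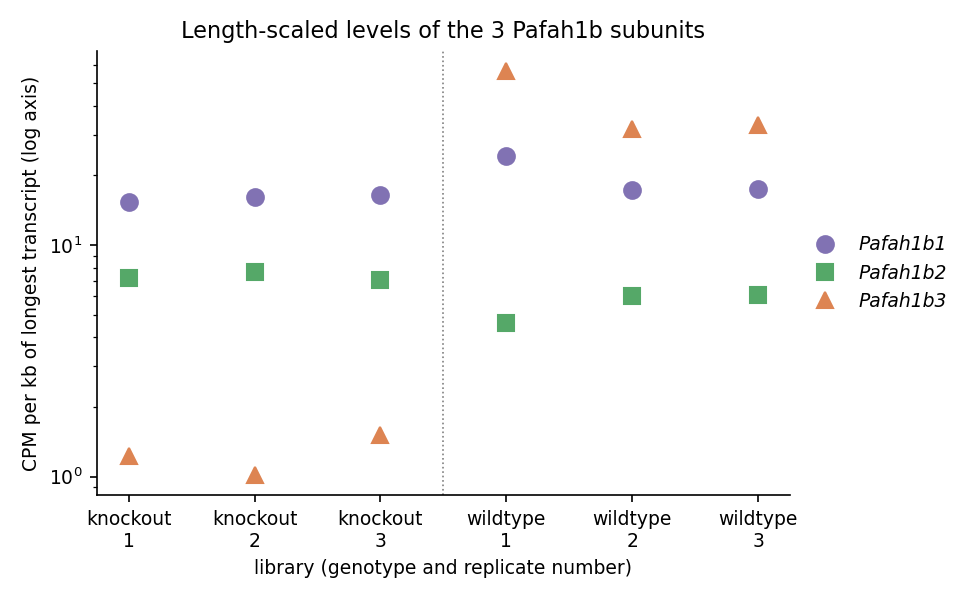
Length-scaled levels (CPM per kb of the longest transcript, log axis) of Pafah1b1, Pafah1b2 and Pafah1b3 in each knockout and wildtype library (horizontal axis). Pafah1b3 is the lowest of the 3 subunits in each knockout library, at 1.01 to 1.51 CPM per kb, and the highest in each wildtype library, at 31.6 to 56.6 CPM per kb.

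Both scaffold genes that link LIS1 to dynein were more abundant in knockout libraries, without passing the threshold over all 6 libraries. Nde1 lies on chromosome 16 (Entrez 67203, 14163275 to 14192928, plus strand). Knockout libraries had 42.7, 40.0 and 35.9 CPM, against 19.6, 30.6 and 27.9 CPM in wildtype libraries. All knockout libraries lay above all wildtype libraries. In the RefSeq table Marf1, on the other strand, lies 3996 bases before Nde1. Myh11, also on the other strand, lies 1598 bases past the end of Nde1. GENCODE lets Marf1 reach into the start of Nde1, so reads could be shared there under that annotation. The log2 change of Marf1 was -0.23 (adjusted p = 0.298, edgeR) and that of Myh11 was -0.38 (adjusted p = 0.144, edgeR). Every knockout library was below every wildtype library for Myh11. The fitted fold of Nde1 was 1.52 (95% interval 1.14 to 2.04) and its log2 change 0.61 (SE 0.18, adjusted p = 0.0731, edgeR), and the DESeq2 Wald test gave an adjusted p of 0.0245. Without wildtype replicate 1 the log2 change was 0.43 and passed (adjusted p = 0.00597, edgeR; 0.00597 to 0.242 over all alternatives).

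Ndel1, the paralog of Nde1, was the most abundant of the 6 genes. It lies on chromosome 11 (Entrez 83431, 68821434 to 68853146, minus strand). Knockout libraries had 391.7, 424.3 and 417.7 CPM, against 223.9, 322.0 and 322.8 CPM in wildtype libraries. Again no knockout library reached down to a wildtype library. The fitted fold was 1.42 (95% interval 1.10 to 1.84) and the log2 change 0.51 (SE 0.16, adjusted p = 0.0839, edgeR), with an adjusted p of 0.0394 in the DESeq2 Wald test. Without wildtype replicate 1 the log2 change was 0.35 and passed (adjusted p = 0.000803, edgeR; 0.000803 to 0.239 over all alternatives). The balance of the paralogs did not differ beyond the spread: the log2 ratio of Ndel1 over Nde1 counts averaged 3.38 ± 0.17 in knockout oocytes and 3.48 ± 0.08 in the wildtype (SD, n = 3 each; two-sided exact permutation test, p = 0.7).

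Dync1h1, the dynein heavy chain that holds the motor domain to which LIS1 binds, lies on chromosome 12 (Entrez 13424, 110601395 to 110666944, plus strand). Knockout libraries had 14.1, 11.2 and 10.8 CPM, against 13.4, 6.90 and 9.65 CPM in wildtype libraries. Here the genotypes overlapped, with wildtype replicate 1 above 2 of the knockout libraries. The fitted fold was 1.20 (95% interval 0.807 to 1.79) and the log2 change 0.26 (SE 0.25, adjusted p = 0.508, edgeR). The value rested on the wildtype libraries taken: it was 0.54 without wildtype replicate 1 (adjusted p = 0.0288, edgeR) and 0.05 without wildtype replicate 2 (adjusted p = 0.896, edgeR; 0.0288 to 0.896 over all alternatives). It is overlapped at its start by another gene in the RefSeq table, the antisense RNA Gm35558, so that reads of its start could be shared.

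Of the 5 genes other than Pafah1b3, then, 0 passed an adjusted p of 0.05 in edgeR, where 11.2% of all 14957 genes tested did. At an unadjusted p under 0.05 there were 3 (Pafah1b2, Nde1 and Ndel1), beside 28.8% of all genes, and the DESeq2 Wald test called 2 (Nde1 and Ndel1), beside 17.9%. The libraries of the genotypes did not overlap for 4 of the 5, where this held for 40.2% of all genes tested: 3 were higher in knockout libraries (21.0% of all genes) and 1 was lower (19.2%). Without wildtype replicate 1, 4 of the 5 were called, all higher in knockout oocytes, beside 34.4% of all genes called in either direction and 16.7% called higher. In each of the other fits with 1 library left out 0 of the 5 were called, beside 2.48%, 2.35% and 2.64% of all genes without knockout replicate 1, 2 or 3 and 5.90% and 6.02% without wildtype replicate 2 or 3.

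**Figure D3:**
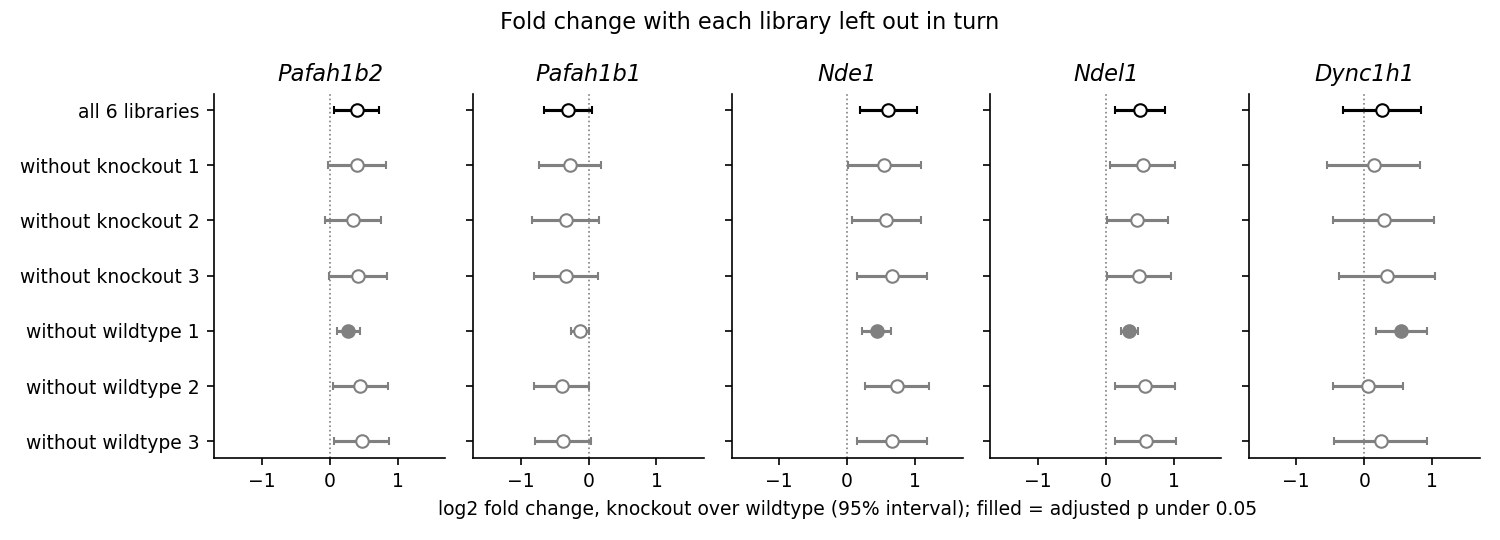
Log2 fold change (horizontal axis, knockout over wildtype, with its 95% interval) of the 5 genes other than Pafah1b3, with all 6 libraries and with each left out in turn (rows). Filled symbols mark an adjusted p under 0.05, which only the fits without wildtype replicate 1 reached, for Pafah1b2 (0.27), Nde1 (0.43), Ndel1 (0.35) and Dync1h1 (0.54).

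The order of the 6 genes by length-scaled level differed between the genotypes mainly in the place of Pafah1b3. In knockout oocytes Ndel1 was the highest (172.6 ± 7.23 CPM per kb), followed by Nde1 (16.9 ± 1.46), Pafah1b1 (16.0 ± 0.547), Pafah1b2 (7.30 ± 0.284), Pafah1b3 (1.25 ± 0.248) and Dync1h1 (0.839 ± 0.129). In wildtype oocytes the order was Ndel1 (121.6 ± 23.9 CPM per kb), Pafah1b3 (40.4 ± 14.0), Pafah1b1 (19.7 ± 3.93), Nde1 (11.1 ± 2.46), Pafah1b2 (5.57 ± 0.843) and Dync1h1 (0.695 ± 0.227; SD, n = 3 for each value). Neighbours in these orders did not overlap over the 3 libraries of a genotype except Nde1 and Pafah1b1 in knockout oocytes. The orders depend on the lengths taken: Pafah1b1 was scaled by 8570 bases, where its longest protein-coding transcript has 5803 bases. Among 13820 tested genes with a known transcript length, the level of Pafah1b3 stood at percentile 28.6 in knockout and 85.8 in wildtype oocytes, and that of Pafah1b2 at percentile 56.6 in knockout and 51.7 in wildtype oocytes.

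A list of 22 other genes held enzymes that make, remodel or break down PAF and ether lipids, and the PAF receptor gene. Of these, 19 were tested, of which 2 rose and 0 fell, beside 5.87% of all genes higher and 5.34% lower. Far2, a reductase that makes the fatty alcohols built into ether lipids, had 5.48, 5.61 and 5.93 CPM in knockout libraries, against 1.66, 2.35 and 2.24 CPM in wildtype libraries (log2 change 1.46, SE 0.20, adjusted p = 0.00523, edgeR). Pla2g4a, the cytosolic phospholipase that releases arachidonic acid and leaves the lyso-lipid from which PAF can be made, rose at a low level, with 1.31 ± 0.116 CPM in knockout oocytes and 0.565 ± 0.181 CPM in the wildtype (SD, n = 3 each; log2 change 1.17, adjusted p = 0.0440, edgeR). Pla2g4a was called in no fit that left out a library other than wildtype replicate 1, while Far2 was called in each.

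The other PAF acetylhydrolases of the list, Pla2g7 and Pafah2, were scarce. Pla2g7, the secreted PAF acetylhydrolase, had 0.605 ± 0.110 CPM in knockout oocytes and 0.232 ± 0.0823 CPM in the wildtype (SD, n = 3 each; adjusted p = 0.0613, edgeR). Pafah2, the other intracellular PAF acetylhydrolase, had 2.14 ± 0.162 CPM in knockout oocytes and 2.04 ± 0.405 CPM in the wildtype (SD, n = 3 each; log2 change 0.08, adjusted p = 0.848, edgeR). Agmo, which cleaves alkyl ether lipids, had 0.382 ± 0.0936 CPM in knockout oocytes and 0.116 ± 0.0675 CPM in the wildtype (SD, n = 3 each; adjusted p = 0.0604, edgeR). The PAF receptor gene Ptafr had 2 to 5 reads in every library and was not tested, nor was Tmem86b, and Peds1 was not matched by name. The median log2 fold change of the list was 0.23 with all libraries and -0.01 without wildtype replicate 1, beside 0.00 and 0.01 over all genes tested.

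Among 20 genes whose products bind or regulate LIS1, NDE1 or NDEL1, of which 19 were tested, 1 rose and 0 fell, close to the share of all genes tested (5.87% higher, 5.34% lower). The riser was Vldlr, a lipoprotein and reelin receptor whose signalling pathway meets that of LIS1 in migrating neurons. It had 6.45, 4.54 and 5.22 CPM in knockout libraries, against 2.33, 1.69 and 1.42 CPM in wildtype libraries (log2 change 1.55, SE 0.25, adjusted p = 0.00978, edgeR), and the call was lost without knockout replicate 1 alone. Nudcd3, a relative of the LIS1-stabilising protein NUDC, had 132.7 ± 9.78 CPM in knockout oocytes and 89.5 ± 21.6 CPM in the wildtype (SD, n = 3 each; adjusted p = 0.0914, edgeR). Katna1, the catalytic subunit of the microtubule-severing enzyme katanin, had a log2 change of 0.35 (adjusted p = 0.0958, edgeR), and Dab1, the adaptor of the reelin receptors, of -0.67 (adjusted p = 0.123, edgeR). The median of the list was 0.02. Dcx had 0 reads in every library.

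Of 14 genes for subunits of the dynein motor itself 13 were tested, Dync1h1 among them, and 1 rose and 0 fell, close to the 5.87% and 5.34% of all genes. It was Dynlrb2, a scarce light chain, with 1.86, 1.60 and 1.85 CPM in knockout libraries, against 0.961, 0.424 and 0.412 CPM in wildtype libraries (log2 change 1.49, SE 0.35, adjusted p = 0.0357, edgeR). Dync1i1, an intermediate chain, had a log2 change of 0.53 (adjusted p = 0.0782, edgeR), Dync1li1, a light intermediate chain, of 0.59 (adjusted p = 0.128, edgeR), and Dynlt1a, whose near-identical copies can share its reads, of -0.53 (adjusted p = 0.173, edgeR). The call of Dynlrb2 was lost with any library left out other than wildtype replicate 1. The list median was 0.12.

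Dynactin is the complex that dynein needs to move processively. Of its 12 subunit genes, all tested, 0 rose and 1 fell, beside 5.87% of all genes higher and 5.34% lower. Dctn6, a subunit of the pointed-end complex, had 21.1, 21.9 and 21.1 CPM in knockout libraries, against 30.3, 27.6 and 28.9 CPM in wildtype libraries (log2 change -0.44, SE 0.12, adjusted p = 0.0495, edgeR), a call close to the threshold that was lost with any library left out other than wildtype replicate 1. Dctn1, the large subunit that binds microtubules and the dynein intermediate chain, had 34.8 ± 6.55 CPM in knockout oocytes and 23.0 ± 4.39 CPM in the wildtype (SD, n = 3 each; adjusted p = 0.0895, edgeR). Actr1a, the actin-related protein of the dynactin filament, and Dctn3 had log2 changes of 0.20 and -0.21 (adjusted p = 0.444 and 0.446, edgeR). The list median was 0.07.

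Among 21 adaptors that join dynein to cargo and activate it, 18 were tested, of which 1 rose and 0 fell, again near the 5.87% and 5.34% of all genes. Hook2, an adaptor of the HOOK family, had 53.8, 57.2 and 50.5 CPM in knockout libraries, against 31.0, 39.2 and 37.6 CPM in wildtype libraries (log2 change 0.59, SE 0.14, adjusted p = 0.0333, edgeR). Of the 6 fits with 1 library left out, only that without wildtype replicate 1 called it. Rilp, which joins dynein to late endosomes and lysosomes, had a log2 change of 0.62 (adjusted p = 0.0759, edgeR), Ccdc88c of 0.51 (adjusted p = 0.132, edgeR) and Ninl of 0.70 (adjusted p = 0.212, edgeR). The list median was -0.01. Without wildtype replicate 1 the numbers called were 5 higher and 1 lower for PAF and ether lipid enzymes, 3 and 1 for interactors, 3 and 0 for dynein, 1 and 1 for dynactin and 4 and 1 for adaptors, beside 16.7% of all genes called higher and 17.7% called lower. Leaving out any other library left at most 1 gene called in each of these lists.

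**Figure D4:**
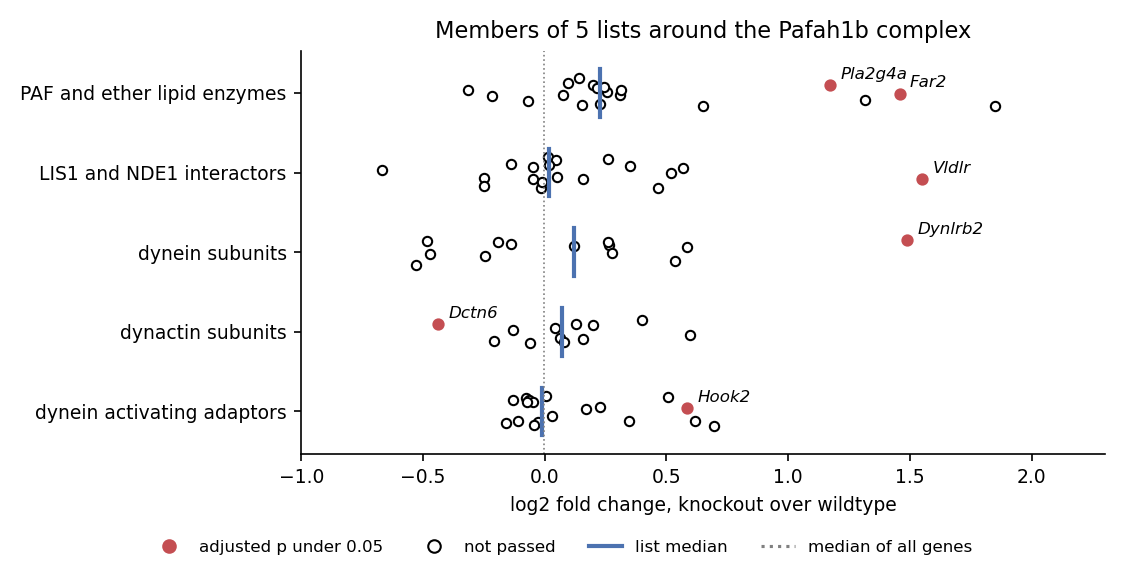
Log2 fold change (horizontal axis, knockout over wildtype) of each tested gene in the 5 lists (rows), with genes past an adjusted p of 0.05 in red and named, list medians as blue bars and the median of all genes dotted. The list medians lie between -0.01 and 0.23, and Far2, Pla2g4a, Vldlr, Dynlrb2 and Hook2 are called to the right and Dctn6 to the left.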

How the data were processed

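RNA was measured in 3 Prdm10 maternal knockout and 3 wildtype pools of GV oocytes, grouped by the labels. Per the labels' protocols, the SMARTer Ultra Low Input kit gave the cDNA and NexteraXT the libraries, sequenced single-end. Per the submitters' processing notes, STAR 2.7.11a and featureCounts 2.0.3 were used with GRCm38.p6 (mm10); for annotation, strand setting and multi-mapped reads the sources used here give nothing. The authors deposited raw counts per Entrez gene, 1 table per library. No pair of libraries agreed within sampling noise. Symbols and coordinates (1-based) came from RefSeq for GRCm38.p6 and transcript lengths from GENCODE M21; 25275 of 27179 identifiers were named from RefSeq and 18 from GENCODE.

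Genes were filtered with filterByExpr (minimum count 10), scaled by TMM and tested in R 4.3.3 by the quasi-likelihood F test of edgeR 4.0.16, with Benjamini-Hochberg adjustment over all 14957 genes tested, after the procedure was tested on simulated data. CPM uses TMM-scaled library sizes, and 1 count is 0.0258 to 0.0445 CPM before scaling. SE is the log2 change, without its sign, over the root of F. Alternatives were DESeq2 size factors, no filter, a filter of 5 CPM in 3 libraries, DESeq2 1.42.0's Wald test, the replicate number as a block, each library left out, and other lengths for the catalytic shares. The genes, lists and tests were chosen with earlier results of these data known. From each list up to 4 genes were named, called ones first by size, then by p. Genes beside Pafah1b3 or overlapping any of the 6 and the 5 nearest in profile were also named by rule. Sik3, Pafah2, Marf1, Myh11 and genes without a test were named by choice.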

Additional observations from a re-analysis of the deposited data

How the results depend on the processing

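The direction of all 6 genes held in every alternative run for them, and that of both ratios with each library left out and with the replicate block, the alternatives run for ratios. With 1 library left out the log2 fold change ranged from -5.18 to -4.69 for Pafah1b3, -0.39 to -0.13 for Pafah1b1, 0.27 to 0.46 for Pafah1b2, 0.43 to 0.73 for Nde1, 0.35 to 0.59 for Ndel1 and 0.050 to 0.54 for Dync1h1. The ratio of Pafah1b2 over Pafah1b1 ranged from 0.40 to 0.83, that of Ndel1 over Nde1 from -0.18 to -0.01, and the difference in the share of Pafah1b3 (knockout minus wildtype) from -73.9 to -69.6 percentage points. The DESeq2 Wald test called Nde1 (0.60) and Ndel1 (0.50). The share differed by -72.4 points in the report, by -50.3 points from counts without length scaling and by -71.8 points with protein-coding transcripts, a setting chosen after seeing the data.

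Genes called numbered 1676 over all genes, 1038 with the filter of 5 CPM, 2671 with DESeq2, and 357 to 5199 with 1 library left out. With 1 library left out, 0 to 3 dynein subunits, 0 to 2 dynactin subunits, 0 to 5 adaptors, 0 to 4 interactors and 1 to 6 PAF and ether lipid enzymes were called. DESeq2 called 2 dynein subunits, 2 dynactin subunits, 2 adaptors and 2 interactors. Under the filter of 5 CPM, which removes scarce genes, 0 dynein subunits, 0 dynactin subunits, 0 interactors and 1 PAF enzyme were called, and with no filter 0 dynactin subunits and 1 PAF enzyme; the cause of the changes was not tested.

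Deviations of libraries that share a replicate number had correlations of -0.0583, 0.00997 and -0.0935, against -0.0281 to 0.0793 for the other pairs. With 3 libraries per genotype this measure cannot tell whether the numbers pair the samples. With the replicate number as a block, 537 genes were called over all genes, 0 dynein subunits, 0 dynactin subunits, 0 adaptors and 1 PAF enzyme. With that block the log2 fold changes of Pafah1b2, Nde1 and Ndel1 were 0.40, 0.63 and 0.53. Genes under about 1 CPM, such as Pla2g7 and Agmo, rest on few reads.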
